A study of Mus musculus with 12 samples.

Results

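The 10 inflammasome genes described here encode the sensors *Nlrp3*, *Nlrp1b*, *Nlrc4*, *Naip2*, *Naip5*, and *Aim2*, the adaptor ASC (*Pycard*), the inflammatory caspases *Casp1* and *Casp4*, and the pore-forming protein gasdermin D (*Gsdmd*). They were chosen by name, with earlier results of these data known. All 10 were found among the 43626 genes of the count files and among the 14308 genes with enough reads to be tested. RNA-Seq was done on bone marrow–derived macrophages (BMDMs), which are macrophages grown in culture from mouse marrow, to ask how the milk sugar 3′sialyllactose (3′SL) changes their response to LPS, the endotoxin of gram-negative bacteria. The data comprised 12 libraries of polyadenylated RNA, 3 for each of 4 conditions, namely PBS, 3′SL at 100 μg/mL, LPS at 10 ng/mL, and both agents together (LPS + 3′SL), for 6 hours. The labels write HMO for 3′SL and describe injections into mice, so doses and hours come from the paper, and the labels give no genotype, strain, sex, or age for the mice of these cultures.

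Inflammasomes are protein platforms that macrophages assemble when a cytosolic sensor meets a microbial product or a sign of cell damage. Most sensors recruit ASC, which gathers caspase-1, and active caspase-1 cuts the precursors of IL-1β and IL-18 as well as gasdermin D, whose freed part opens pores in the plasma membrane and kills the cell by pyroptosis. Caspase-11, the product of *Casp4* in mice, binds LPS in the cytosol and cuts gasdermin D without a separate sensor. The transcription that supplies these parts beforehand is called priming, and the amount of mRNA says nothing about whether a platform was assembled.

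The depth was 20411741 to 26851890 reads on genes per library, with levels expressed in CPM, that is, read counts relative to a library size scaled by edgeR's TMM factors (0.700 to 1.30). The labels do not say whether replicates came from separate cultures or mice, so p-values measure only the spread between these libraries. The 12 libraries fell into 3 sets of 4, which are runs of consecutive numbers in the labels with 1 library of each condition, and values below are given in the order of sets 1, 2, and 3. The summed level of 7 macrophage markers was 17427 to 27631 CPM, and none of them was at 0. Marker sums differed between conditions and between sets. With LPS alone the macrophage sum was 24617 to 27281 CPM, against 17427 to 20331 CPM in PBS, the dendritic sum (5 genes) was 5.38 to 14.3 CPM against 1.12 to 1.72 CPM, and the T and NK sum (5 genes, at least 3 of them at 0 in every library of either condition) was 0 to 0.145 CPM against 0.431 to 1.28 CPM, all without overlap. The erythroid sum (4 genes) was 0 with LPS and 0.144 to 0.175 CPM in PBS. The sum of 6 stromal markers was 619 to 714 CPM in set 1 and 27 to 106 CPM in the others, and that of 7 neutrophil markers was 99.5 to 148 CPM in set 1, 169 to 273 CPM in set 2, and 202 to 584 CPM in set 3. The part of these cells in the levels below was not tested, and in bulk samples fewer cells of a type and less RNA per cell cannot be told apart. Over all libraries the dendritic, B cell (4 genes), mast and basophil (4), T and NK, and erythroid sums were at most 15.9, 2.75, 3.49, 1.28, and 0.261 CPM.

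The start regions of 4 genes are shown as examples, chosen with the LPS responses known (most of the 10 genes rose and *Nlrp1b* fell). Of the 10, 9 had an entry in the RefSeq promoter table, and *Gsdmd* had none. The 250 bases before each start (GRCm38.p6) were searched on both strands for GGGNNTTTC, an NF-κB-like word, GAAANNGAA, an ISRE-like word, TTCNNNGAA, a GAS-like word, and GAGGAA, the core of PU.1-like words. Stretches run 5′ to 3′ on the strand of the gene, and capitals mark 1 match in each. Other matches are not marked or not shown, such as the PU.1-like core in the stretch of *Aim2* and another NF-κB-like word of *Casp4*.
Casp4, chr9:5308726-5308794, plus strand: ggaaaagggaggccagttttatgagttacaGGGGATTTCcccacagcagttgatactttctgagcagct
Aim2, chr1:173420420-173420488, plus strand: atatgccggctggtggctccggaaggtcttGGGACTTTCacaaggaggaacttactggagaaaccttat
Naip2, chr13:100202233-100202301, minus strand: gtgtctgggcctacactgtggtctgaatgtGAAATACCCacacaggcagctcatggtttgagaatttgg
Nlrp1b, chr11:71230794-71230859, minus strand: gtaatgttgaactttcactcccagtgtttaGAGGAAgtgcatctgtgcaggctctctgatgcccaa
The NF-κB-like word stood in *Casp4*, *Aim2*, and *Naip2* (there on the opposite strand) and in 3.72% of the 32851 windows of all genes. The PU.1-like core stood in *Nlrp3*, *Nlrp1b*, *Aim2*, *Pycard*, and *Casp1* and in 23.3% of all windows. The ISRE-like word (7.13% of all windows) and the GAS-like word (7.02%) were found in none of the 9 genes, and *Naip5* and *Nlrc4* held no word of the 4. A match is a description of letters and not a bound site, and whether the words go with the direction of change was not tested.

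Names and positions follow GENCODE M21 (GRCm38), where some of the genes are close neighbours. *Casp1* (chr9:5298517-5307265, plus strand) ends 1562 bases before *Casp4* (chr9:5308828-5336783, plus strand). *Naip2* (chr13:100144063-100202092, minus strand) and *Naip5* (chr13:100211739-100246323, minus strand) are 9646 bases apart and belong to a family of near copies. Of the words of 50 nucleotides in the transcripts, 36.8% of those of *Naip5* and 19.1% of those of *Naip2* also occurred in other genes, mainly *Naip6* and *Naip1*, so the values of both are uncertain. The share was at most 1.45% for the other 8 genes. *Pycard* (chr7:127989708-127993867, minus strand) overlaps *Gm45205* on the opposite strand over 12.8% of its exon length, and whether the counting used the strand is not given in the sources used here.

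In resting cells the genes differed in level. Per kilobase of transcript, the mean in PBS was highest for *Casp1*, at 48.4 ± 5.36 RPKM (SD, n = 3), and lowest for *Nlrc4*, at 3.51 ± 0.921 RPKM. Between them lay, in falling order, *Gsdmd*, *Nlrp3*, *Naip2*, *Aim2*, *Pycard*, *Nlrp1b*, *Casp4*, and *Naip5*. The libraries of neighbours in this order overlapped from *Gsdmd* through *Pycard* and between *Nlrp1b* and *Casp4*, so their order is not resolved. With LPS the order was *Casp1* (447 ± 116 RPKM), *Casp4* (224 ± 56.9 RPKM), *Nlrp3* (168 ± 7.88 RPKM), *Gsdmd*, *Aim2*, *Naip2*, *Pycard*, *Naip5*, *Nlrc4*, and *Nlrp1b* (1.70 ± 0.526 RPKM), with no overlap between neighbours. *Casp4*, not resolved from *Nlrp1b* in PBS, had moved from below *Pycard* to the place after *Casp1*. The order and the lack of overlap hold for the transcript lengths used. For *Casp4* that length was 1435 bases, while its merged exons span 3710 bases. On the longer length its level would be lower, and the order on merged exons was not computed. The level of *Pycard* per kilobase rests on an annotated transcript of 3800 bases, of which 579 are coding, and would be higher on a shorter one.

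**Figure D1:**
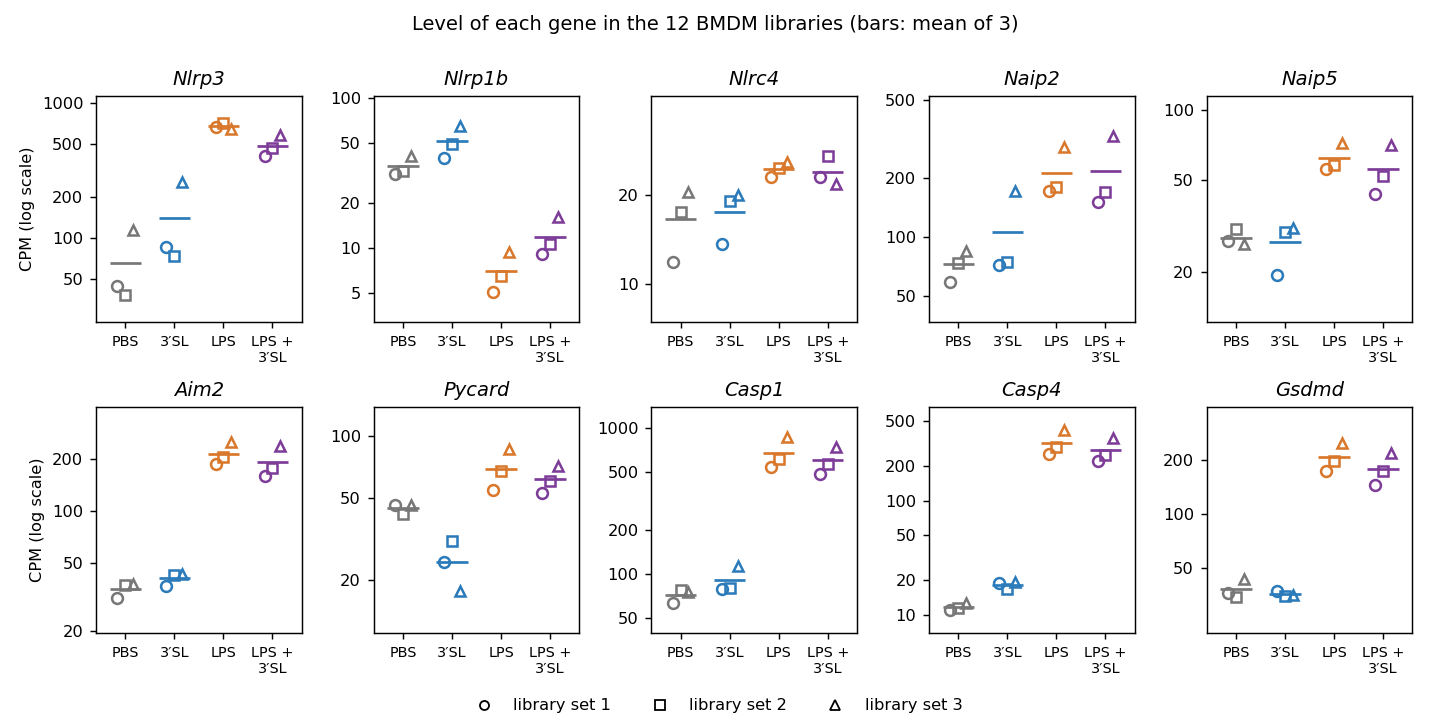
Level in CPM (log scale) of the 10 genes in each of the 12 libraries, by condition, with the marker giving the library set and the bar the mean of 3 libraries. *Casp4* lay at 11 to 12.6 CPM in PBS and at 258 to 414 CPM with LPS, *Nlrp1b* moved the other way, and *Pycard* was lowest with 3′SL.

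Priming by LPS raised 8 of the 10 genes, lowered *Nlrp1b*, and left *Nlrc4* just short of the fold required. A gene was called changed at an adjusted p under 0.05 (edgeR's quasi-likelihood test, Benjamini-Hochberg over all genes tested) and at least 1.5-fold. By this rule 18.3% of all tested genes were higher and 20.2% were lower with LPS than with PBS. The median change of the 10 genes was 2.00 on the log2 scale, against -0.06 for all genes tested. The values depend on the scaling. When libraries were scaled by their total counts instead, the median change of all genes was -0.71 on the log2 scale, 1535 genes were called higher and 6657 lower (2613 and 2889 with TMM), and 6 of the 10 genes were called higher.

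The largest change among the 10 was that of *Casp4*. Its level was 11, 11.5, and 12.6 CPM in PBS and 258, 292, and 414 CPM with LPS. The log2 fold change was 4.78 ± 0.23 (SE), or 27.5-fold (edgeR adjusted p = 3.9e-07). *Casp1*, the protease that matures IL-1β, was at 63.3, 78.2, and 76.0 CPM in PBS and at 536, 608, and 865 CPM with LPS, 9.24-fold higher (log2 fold change 3.21 ± 0.24, edgeR adjusted p = 2.94e-06). In both genes every library with LPS lay far above every library without, and in both the level with LPS was highest in set 3.

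*Gsdmd*, the shared substrate of both caspases, rose from 36.2, 34.3, and 43.3 CPM to 173, 198, and 247 CPM, which was 5.43-fold (log2 fold change 2.44 ± 0.176, edgeR adjusted p = 2.42e-06). *Pycard*, the adaptor between sensors and caspase-1, changed less. It was at 46.2, 41.9, and 46.2 CPM in PBS and at 54.6, 67.7, and 86.6 CPM with LPS. The libraries did not overlap, but the step grew from 0.24 in set 1 to 0.69 in set 2 and 0.90 in set 3 as log2 ratios within sets. The fitted log2 fold change was 0.64 ± 0.211 (1.55-fold, edgeR adjusted p = 0.0289), and with total counts it was -0.04. The call also ended when any PBS library was left out (adjusted p 0.0621, 0.0900, and 0.0572 without replicates 1, 2, and 3) or when LPS replicate 2 or 3 was (0.0572 and 0.127).

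Among the sensors, *Nlrp3* and *Aim2* rose most. *Nlrp3*, which responds to potassium efflux and other signs of damage, was at 44.4, 38.3, and 115 CPM in PBS and at 668, 709, and 647 CPM with LPS. The PBS library of set 3 was thus well above the other 2, while the LPS libraries were close together. The log2 fold change was 3.36 ± 0.54 (10.2-fold, edgeR adjusted p = 0.000463), and within sets it was 3.91, 4.21, and 2.49. *Aim2*, a sensor of cytosolic DNA, went from 31.0, 37.2, and 37.6 CPM to 188, 207, and 253 CPM, 6.12-fold higher (log2 fold change 2.61 ± 0.176, edgeR adjusted p = 1.61e-06).

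The NAIP–NLRC4 sensors, in which NAIP proteins bind bacterial flagellin or parts of secretion systems and NLRC4 relays the signal, rose less. *Naip2* was at 58.6, 73.3, and 84.3 CPM in PBS and at 171, 179, and 286 CPM with LPS, and *Naip5* at 27.2, 30.7, and 26.3 CPM and at 55.5, 57.9, and 72.3 CPM. The log2 fold changes were 1.56 ± 0.396 for *Naip2* (2.94-fold, edgeR adjusted p = 0.00788) and 1.14 ± 0.211 for *Naip5* (2.20-fold, edgeR adjusted p = 0.00117), though with total counts that of *Naip5* was 0.47 and missed the fold. *Nlrc4* had the smallest change of the 10. It was at 11.9, 17.5, and 20.5 CPM in PBS and at 23.1, 24.8, and 26.0 CPM with LPS, without overlap. Its log2 fold change was 0.57 ± 0.204 (1.48-fold, edgeR adjusted p = 0.0405), under the 1.5-fold required, and -0.08 with total counts. It was called with the library sets as a block (0.59, adjusted p = 0.00411), with DESeq2 (0.62, adjusted p = 0.0181), with DESeq2's size factors in edgeR, and without PBS replicate 3 (0.75, adjusted p = 0.0176).

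*Nlrp1b*, a sensor of bacterial proteases, was the only 1 of the 10 that fell. Its level was 31.4, 32.8, and 41.2 CPM in PBS and 5.13, 6.54, and 9.39 CPM with LPS. The log2 fold change was -2.33 ± 0.285 (edgeR adjusted p = 7.13e-05), and each set gave a similar step (-2.62, -2.33, and -2.13). The gene next to it, *Nlrp1a*, a close relative that shares 1.21% of the words of *Nlrp1b*, had a log2 fold change of -0.12 ± 0.228 (edgeR adjusted p = 0.711).

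The response was also measured in cells given 3′SL. LPS + 3′SL against 3′SL called 8 of the 10 genes, 7 of them higher and *Nlrp1b* lower, where 14.3% of all tested genes were called higher and 14.8% lower. Its libraries are other ones than those of LPS against PBS. The log2 fold changes were 3.91 ± 0.221 for *Casp4*, 2.71 ± 0.235 for *Casp1*, 2.32 ± 0.176 for *Gsdmd*, 2.24 ± 0.173 for *Aim2*, 1.78 ± 0.508 for *Nlrp3*, and -2.11 ± 0.279 for *Nlrp1b*. *Pycard* had a log2 fold change of 1.34 ± 0.215 (2.53-fold, edgeR adjusted p = 0.000663), set against 0.64 in LPS against PBS. Its low level in the 3′SL libraries was known beforehand and enters this comparison, so the larger step is a description. *Naip5* was called at 1.05 ± 0.211, while *Naip2* (1.03 ± 0.391, edgeR adjusted p = 0.061) and *Nlrc4* (0.45 ± 0.204, edgeR adjusted p = 0.115) were not. *Naip2* was called with the library sets as a block (1.06, adjusted p = 0.00012), with DESeq2 (1.06, adjusted p = 0.0257), and without LPS + 3′SL replicate 1 (1.24, adjusted p = 0.0454) or 3′SL replicate 3 (1.58, adjusted p = 0.00539). The call of *Nlrp3* (edgeR adjusted p = 0.0183) ended without 3′SL replicate 1 (0.0676), 3′SL replicate 2 (0.066), or LPS + 3′SL replicate 3 (0.0544).

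**Figure D2:**
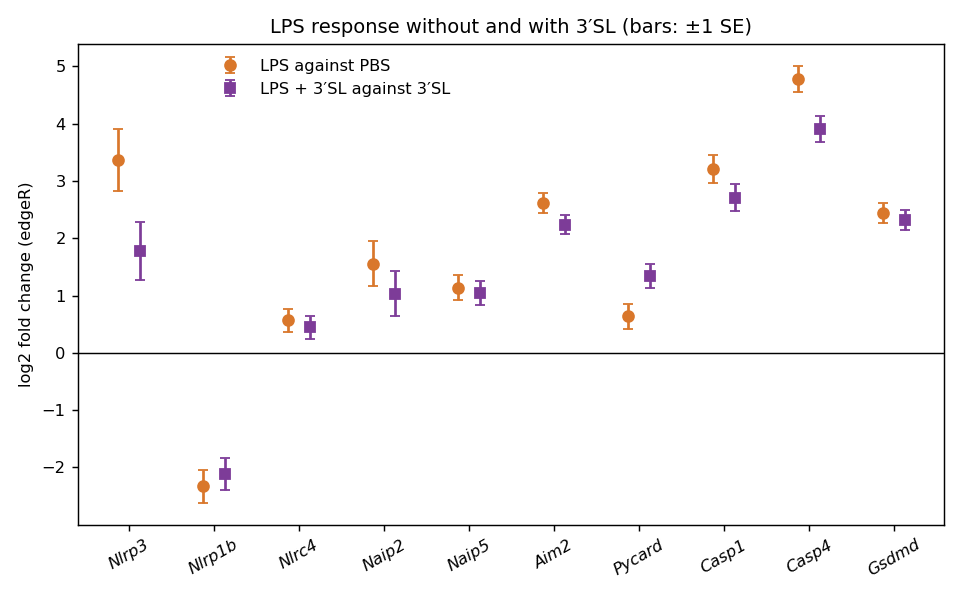
Log2 fold change (edgeR, ±1 SE) of the 10 genes with LPS against PBS and with LPS + 3′SL against 3′SL. *Nlrp1b* is below 0 in both comparisons, and *Casp4* is highest in both. The points of 8 of the 10 genes, *Nlrp3* and *Casp4* among them, lie lower in the comparison with 3′SL. Those of *Pycard* and *Nlrp1b* lie higher, and edgeR called no interaction among the 10. The low level of *Pycard* with 3′SL was known beforehand, so its point is a description.

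The wider pathway was read through a list of 42 further genes, of which 39 were matched and 36 were tested. The list was made with earlier results of these data known. With LPS, 22 of the 36 rose and 3 fell (median log2 fold change 1.5), beside 18.3% of all tested genes called higher and 20.2% called lower. Among other sensors and the GTPases that help them reach bacteria, 7 of 9 rose and 1 fell, among activators and regulators 8 of 18 rose, and among effectors and substrates 7 of 9 rose and 2 fell. *Il1b* and *Il1a* had the largest changes. *Il1b* was at 2.04, 2.42, and 5.53 CPM in PBS and at 2234, 2916, and 3772 CPM with LPS (log2 fold change 9.80 ± 0.93, edgeR adjusted p = 1.28e-05). *Il1a*, the IL-1 that needs no caspase-1, had a log2 fold change of 9.43 ± 0.673. *Il18* was already present in PBS, at 8.99, 9.58, and 9.11 CPM, and reached 106, 113, and 138 CPM (log2 fold change 3.69 ± 0.149).

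Genes of sensing rose as well. The guanylate-binding proteins *Gbp3* and *Gbp2*, which coat bacteria in the cytosol, had log2 fold changes of 7.30 ± 0.592 and 7.25 ± 0.555, and *Gm12250* (Irgb10), a GTPase that acts with them, 5.09 ± 0.541. *Mefv*, the sensor pyrin, was at 0.287, 0.912, and 1.21 CPM in PBS and at 35.4, 48.6, and 98.2 CPM with LPS (log2 fold change 6.25 ± 0.90). *Zbp1*, a sensor of Z-form nucleic acids, *Casp12*, and *Ifi204* had changes of 5.20 ± 0.747, 3.90 ± 0.693, and 3.84 ± 0.463, and *Casp12* stayed low, at 4.46 to 9.45 CPM with LPS. *Tnfaip3*, the NF-κB inhibitor A20, and *Trim30a* rose as well (3.79 ± 0.392 and 3.61 ± 0.34). The 3 that fell were *Gsdme* (-1.85 ± 0.31), another pore former, *Nlrp10* (-1.22 ± 0.30), and *Hmgb1* (-0.90 ± 0.239). In LPS + 3′SL against 3′SL, 19 of the 36 were called higher and 3 lower, beside 14.3% and 14.8% of all tested genes. The lowest p-values there were those of *Il18* (3.19 ± 0.146), *Irf1*, a transcription factor that drives *Gbp* genes (3.11 ± 0.182), and *Gbp2* (6.44 ± 0.535).

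**Figure D3:**
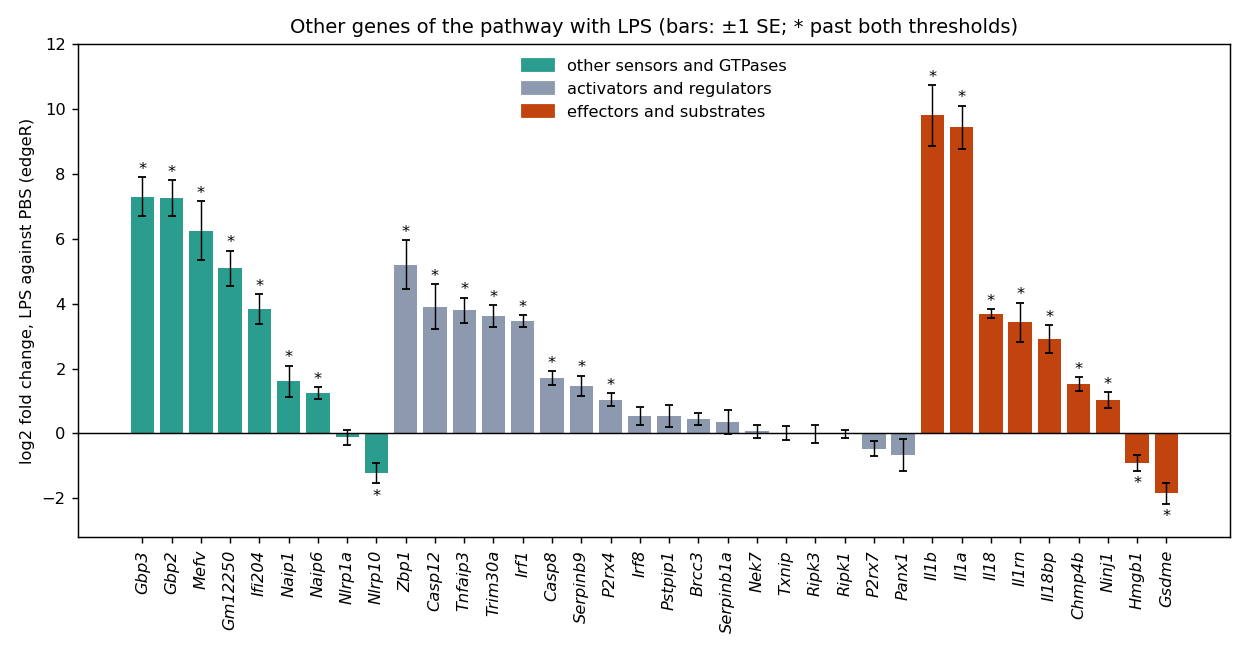
Log2 fold change (edgeR, ±1 SE) with LPS against PBS of the 36 other pathway genes that were tested, grouped by role, with an asterisk where both thresholds were passed. *Il1b* and *Il1a* exceed 9 on the log2 scale, and *Nlrp10*, *Hmgb1*, and *Gsdme* are the 3 called lower.

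3′SL alone, compared with PBS, called none of the 10 genes in edgeR, where the share of all genes called was 0%. At an unadjusted p under 0.05, 2 of the 10 and 1439 of all genes differed. The lower level of *Pycard* with 3′SL was known from earlier results of these libraries, so its values are a description. *Pycard* was at 46.2, 41.9, and 46.2 CPM in PBS and at 24.5, 31.1, and 17.7 CPM with 3′SL, so that all 3 libraries with 3′SL were below all 3 without. The log2 fold change was -0.87 ± 0.213 (edgeR adjusted p = 0.27), and within sets it was -0.92, -0.43, and -1.39. DESeq2 called it (adjusted p = 0.0216), as the only 1 of the 10, beside 0.147% of all genes called lower and 0.469% called higher. With 3 libraries against 3, an exact 2-sided permutation test cannot go below 0.1, so no single gene could be called by it.

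Libraries of the same set moved together, and the calls for 3′SL differed when the sets were taken as a block. A fit with the sets as a block called 0.86% of all genes lower and 1.98% higher with 3′SL, and among the 10 it called *Pycard* lower (-0.87, adjusted p = 0.0294) and *Casp4* higher (0.65, adjusted p = 0.0159). *Casp4* was at 19.0, 16.8, and 19.2 CPM with 3′SL, against 11 to 12.6 CPM in PBS. Its log2 fold change was 0.65 ± 0.201 (1.57-fold, edgeR adjusted p = 0.358), with 0.79, 0.55, and 0.60 within sets. The block calls of both genes were lost when set 1 or set 2 was left out. They were kept without set 3 (block fit adjusted p = 0.00211 for *Pycard* and 0.00158 for *Casp4*).

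Other genes of the 10 were higher with 3′SL in every set without a call. *Nlrp3* was at 85.5, 74.0, and 261 CPM with 3′SL, overlapping PBS, with set 3 highest in both, and the ratio within sets was 0.95, 0.95, and 1.19 (fitted 1.09 ± 0.499, edgeR adjusted p = 0.506). *Nlrp1b* was at 39.7, 49.4, and 65.0 CPM with 3′SL (log2 fold change 0.55 ± 0.266, edgeR adjusted p = 0.538). *Casp1* was at 79.4, 81.0, and 114 CPM with 3′SL, just above its PBS libraries (0.33 ± 0.222, edgeR adjusted p = 0.663). In all, 6 of the 10 were higher in all 3 sets and *Pycard* was lower in all 3. The share of all genes with the same direction in every set was not computed, so this count is only a description. Libraries did not overlap for *Casp1* and *Casp4*, which were higher, and for *Pycard*, which was lower, while 9.02% of all genes were higher and 8.53% lower without overlap. *Naip2* (0.55 ± 0.389), *Aim2* (0.20 ± 0.167), *Nlrc4* (0.09 ± 0.204), *Naip5* (-0.07 ± 0.209), and *Gsdmd* (-0.10 ± 0.168) had smaller or less even differences. The 3′SL library of set 3 held *Naip2* at 171 CPM, against 71.3 and 74.1 CPM in the other sets.

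Of the 36 pathway genes, edgeR called none with 3′SL alone, where it called 0% of all genes. An unadjusted p under 0.05 was reached by 5 of the 36 and by 1439 of all 14308 genes. DESeq2 called only 1, which was higher, beside 0.469% of all genes called higher and 0.147% called lower. With the block 2 were called higher and 1 lower, beside 1.98% and 0.86% of all genes. The 3 lowest p-values were those of *Panx1*, a channel that releases ATP, *Txnip*, and *Nlrp10*. *Panx1* was at 14.6, 10.9, and 16.5 CPM in PBS and at 31.9, 23.1, and 110 CPM with 3′SL (log2 fold change 1.97 ± 0.498, edgeR adjusted p = 0.286), and its highest value was again that of set 3. It was the gene that DESeq2 called (adjusted p = 0.0137), it was called with the block too (1.74, adjusted p = 0.0144), and its change was 0.94 without 3′SL replicate 3. *Txnip*, an inhibitor of thioredoxin, was at 408 to 468 CPM in PBS and 569 to 769 CPM with 3′SL (0.60 ± 0.205, edgeR adjusted p = 0.409), and *Nlrp10* at 5.70 to 6.31 CPM and 3.02 to 4.61 CPM (-0.74 ± 0.294, edgeR adjusted p = 0.453). *Txnip* overlaps an antisense gene over 19.4% of its exon length.

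**Figure D4:**
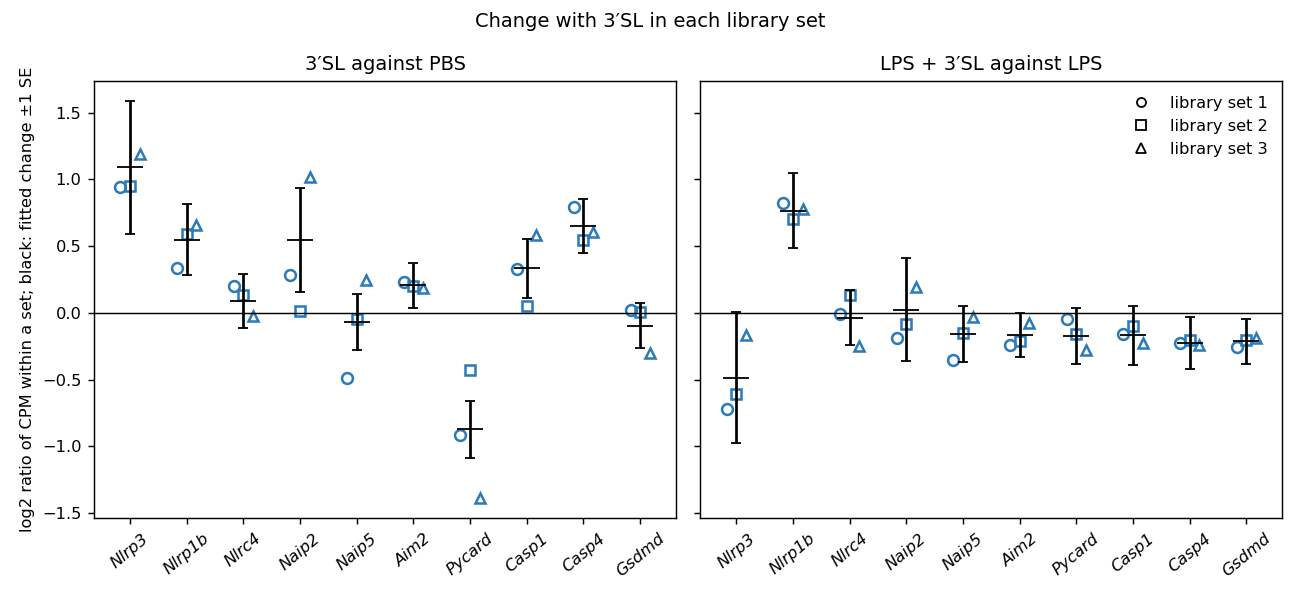
Log2 ratio of CPM within each library set (markers) and fitted log2 fold change ±1 SE (black) of the 10 genes, for 3′SL against PBS (left) and LPS + 3′SL against LPS (right). Without LPS the ratios of *Pycard* run from -1.39 to -0.43 and those of *Nlrp3* from 0.95 to 1.19, and with LPS most genes lie a little below 0 while *Nlrp1b* lies at 0.70 to 0.82.

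During LPS stimulation, 3′SL made small differences among the 10 genes. LPS + 3′SL against LPS called none of them in edgeR or DESeq2. Of all 14308 genes tested, edgeR called 0%, and DESeq2 called 47 higher and 66 lower. In edgeR, 1 of the 10 and 995 of all genes had an unadjusted p under 0.05. The 1 gene was *Nlrp1b*, at 5.13, 6.54, and 9.39 CPM with LPS and at 9.07, 10.6, and 16.1 CPM with LPS + 3′SL. The groups overlapped, but each set gave nearly the same ratio (0.82, 0.70, and 0.78). The log2 fold change was 0.77 ± 0.278 (1.70-fold, edgeR adjusted p = 0.545), and the block fit called it (0.77, adjusted p = 0.00677) as 1 of the 0.685% of all genes that it called higher. This call was lost when set 1 (block fit adjusted p = 0.194) or set 2 (0.219) was left out, and kept without set 3 (0.00347). Its level with LPS + 3′SL stayed below every PBS library.

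The other genes were mostly a little lower with LPS + 3′SL than with LPS. *Nlrp3* was at 405, 464, and 576 CPM, below the 647 to 709 CPM of LPS without overlap (-0.49 ± 0.493, edgeR adjusted p = 1), beside 6.50% of all genes that were lower and 6.24% that were higher without overlap. *Casp4* was at 221, 253, and 351 CPM and differed from LPS by -0.23, -0.21, and -0.24 within sets (-0.23 ± 0.195). *Casp1* (-0.17 ± 0.221), *Gsdmd* (-0.21 ± 0.167), *Aim2* (-0.16 ± 0.165), *Naip5* (-0.16 ± 0.208), and *Pycard* (-0.17 ± 0.21) were likewise lower within every set, each by less than 1.5-fold and with an edgeR adjusted p of at least 0.994. What share of all genes was lower within every set was not computed. *Pycard* was at 53.0, 60.6, and 71.5 CPM with LPS + 3′SL, above its PBS libraries and those with 3′SL alone. *Nlrc4* (-0.04 ± 0.204, 0.07 with total counts) and *Naip2* (0.02 ± 0.387, -0.02 with the block) had no steady direction.

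Pathway genes were compared in the same way. Of the 36 pathway genes, edgeR and DESeq2 called none. An unadjusted p under 0.05 was reached by 3 of the 36 and by 995 of all 14308 genes. The block fit called 3 lower, beside 0.762% of all genes. The 3 lowest p-values were those of *Il1a*, *Il18*, and *Tnfaip3*. *Il1a* was at 1088, 1271, and 1760 CPM with LPS and at 298, 336, and 793 CPM with LPS + 3′SL (-1.53 ± 0.471, edgeR adjusted p = 0.40, block fit adjusted p = 0.00266). *Il18* was at 79.4, 89.9, and 110 CPM with LPS + 3′SL (-0.36 ± 0.133, edgeR adjusted p = 0.569), and *Tnfaip3* at 373, 425, and 614 CPM against 721, 858, and 1005 CPM (-0.87 ± 0.353, edgeR adjusted p = 0.641, block fit adjusted p = 0.0104). *Il1b* was at 737, 1078, and 2293 CPM, with ratios of -1.60, -1.44, and -0.72 within sets (-1.12 ± 0.64, edgeR adjusted p = 0.849, block fit adjusted p = 0.0221).

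The interaction asked whether the difference made by 3′SL depends on LPS. edgeR and DESeq2 called none of the 10 genes. Of all 14308 genes tested, edgeR called 0%, and DESeq2 called 8 higher and 36 lower. In edgeR, 3 of the 10 and 872 of all genes had an unadjusted p under 0.05. These 3 were *Casp4* (-0.88 ± 0.28, edgeR adjusted p = 0.683), *Pycard* (0.70 ± 0.298, edgeR adjusted p = 0.811), and *Nlrp3* (-1.58 ± 0.702, edgeR adjusted p = 0.811). With the sets as a block, 1.29% of all genes were called lower, and *Casp4* was 1 of them (-0.88, adjusted p = 0.03). It was not called when set 1 (adjusted p = 0.365) or set 2 (0.296) was left out, but was without set 3 (0.00148). In *Casp4* the interaction was -1.02, -0.76, and -0.84 within sets, that is, 3′SL went with a higher level in resting cells and a slightly lower one with LPS. For *Pycard* it was 0.87, 0.27, and 1.11, and for *Nlrp3* -1.67, -1.56, and -1.35. The value of *Pycard* is a description, because its lower level with 3′SL alone was known beforehand and enters the interaction. Of the 36 pathway genes, none was called by edgeR or DESeq2, 3 had an unadjusted p under 0.05, and the block fit called *Mefv*, *Il1a*, and *Il1b* lower. The 3 with an unadjusted p under 0.05 were *Il1a* (-2.45 ± 0.701), *Il18* (-0.50 ± 0.192), and *Il1b* (-2.44 ± 0.935), with edgeR adjusted p-values of 0.646, 0.746, and 0.746.

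Over the 4 conditions, the mean level of *Nlrp3*, *Nlrc4*, *Aim2*, *Casp1*, and *Casp4* ran in the order PBS, 3′SL, LPS + 3′SL, LPS, and that of *Naip5*, *Pycard*, and *Gsdmd* in the order 3′SL, PBS, LPS + 3′SL, LPS. *Naip2* ran from PBS through 3′SL and LPS to LPS + 3′SL, and *Nlrp1b* alone was lowest with LPS and highest with 3′SL. In every gene but *Nlrp3*, the libraries of LPS and LPS + 3′SL overlapped. The libraries of PBS and 3′SL were apart for *Pycard*, *Casp1*, and *Casp4*.

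As a description over the 12 libraries, the genes most like *Pycard* among 8063 genes with a mean of at least 10 CPM were *Raver1* (r = 0.951), *Gatm* (r = 0.949), and *Gnptab* (r = 0.946), by Pearson's correlation of log2(CPM + 1). Their mean levels ran from 66.4, 92.2, and 210 CPM in PBS to 56.3, 66.9, and 153 CPM with 3′SL and 80.6, 139, and 273 CPM with LPS, so each was lowest with 3′SL. The genes most like *Nlrp3* were *Ehd1* (r = 0.990), the chemokine *Cxcl2* (r = 0.990), and *Zc3h12c* (r = 0.988). *Cxcl2* was at a mean of 5.46 CPM in PBS, 20.3 CPM with 3′SL, 261 CPM with LPS, and 95.1 CPM with LPS + 3′SL. The points share the sets and the condition means, so these correlations carry no test.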

How the data were processed

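RNA-Seq libraries of BMDMs were analysed, 3 per condition. The authors deposited read counts per gene, not normalized. The submitters' processing notes name FastQC, Trimmomatic, STAR, HTSeq, and DESeq2 with no versions or roles, and the genome build, annotation, and strand setting are not given in the sources used here. The 10 genes and the gene lists were chosen with earlier results of these data known. Identifiers were matched without versions to GENCODE M21, which named 42462 genes, though not *Gbp5*, *Pydc3*, or *Pydc4*. Counts were fitted in edgeR 4.0.16 (R 4.3.3) with filterByExpr, TMM factors, and 1 mean per condition over all 12 libraries, after the script had been tested on simulated data. The SE of an edgeR log2 fold change was derived from the test, as its absolute size divided by the square root of the F statistic. RPKM divides CPM by the length in kilobases of the CCDS transcript of median length. Replicate libraries differed by more than sampling noise (chi-square of at least 15.6 per gene). Pairs of sets 1 and 2 within a condition were at 15.6 to 20.3, and pairs with set 3 were at 65.3 to 115.

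Sets of libraries were found from the running numbers in the labels. After condition means were removed, libraries of a set correlated at 0.529 or more (mean 0.673), those of other sets at -0.10 or less, and all 12 clustered with their own run. A fit with the sets as a block was therefore an alternative, beside DESeq2 1.42.0, other scalings and filters, fits of only the conditions compared, and leaving out each library. Blocks with total counts or without a set were chosen after seeing the data. Pathway genes named are, for LPS, the 12 called with the largest change and, for each comparison of 3′SL, the 3 with the lowest p, with *Il1b* and *Il18*. *Gsdme*, *Hmgb1*, *Nlrp1a*, *Mefv* in the interaction, and *Nlrp10* with LPS were named after their values were seen.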

Additional observations from a re-analysis of the deposited data

Results flagged for a closer look

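The difference that 3′SL made to *Casp4* was not the same with and without LPS when library sets were taken as a block, with an interaction of -0.879 on the log2 scale (edgeR adjusted p = 0.03). The call was lost when set 1 (-0.799, adjusted p = 0.365) or set 2 (-0.938, adjusted p = 0.296) was left out. It was kept without set 3 (-0.865, block fit adjusted p = 0.00148). Without the block the interaction was -0.88 and was not called (adjusted p = 0.683). The mean level was 11.7 ± 0.862 CPM in PBS and 18.3 ± 1.35 CPM with 3′SL (SD, n = 3), and 321 ± 81.7 CPM with LPS and 275 ± 67.8 CPM with LPS + 3′SL. What underlies it was not tested.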

How the results depend on the processing

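The counts called with LPS against PBS (9 of 10) and with LPS + 3′SL against 3′SL (8 of 10) stayed within 1.5 times under every alternative, at 8 to 9 and at 7 to 9 when 1 library was left out. For 3′SL against PBS, where edgeR called 0, DESeq2 called 1 (*Pycard*), the replicate block 2 (*Pycard* and *Casp4*), the block with total counts 1 (*Pycard*), and the block without set 3 called 3. For LPS + 3′SL against LPS, and likewise for the interaction, the count was 0 without the block, 1 with it, and 1 with total counts too, while without set 3 it was 2 for the former and 3 for the latter. Leaving out a single library called 0 in these 3 comparisons. A block without set 1, or without set 2, called 0 in all 3 of them. The share of all genes called by the blocks with total counts or without a set was not computed. Their counts among the 10 are therefore only a description.

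Some directions changed. With total counts, and with the block as well, *Nlrc4* was at -0.0796 and -0.0683 and *Pycard* at -0.0395 and -0.0407 for LPS against PBS. Under the same pair, *Nlrc4* was at 0.0672 and 0.0604 for LPS + 3′SL against LPS, at -0.0147 and -0.01 for LPS + 3′SL against 3′SL, and at 0.0649 and 0.0582 for the interaction, for which *Naip5* was at 0.0804 and 0.0881 and *Gsdmd* at 0.0475 and 0.0438. With the block, *Naip2* was at -0.023 for LPS + 3′SL against LPS, and without set 3 at -0.127, where *Nlrc4* was at 0.0697 and, for the interaction, *Naip5* at 0.0262. Without set 1, *Naip5* was at 0.0897 with 3′SL alone. Scaling causes the first group by construction, and the cause of the others was not tested.

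When 1 library was left out, the changes that crossed 0 with 3′SL alone ranged from -0.104 to 0.267 for *Nlrc4*, from -0.0232 to 0.762 for *Naip2*, from -0.222 to 0.118 for *Naip5*, and from -0.163 to 0.0111 for *Gsdmd*. For LPS + 3′SL against LPS the ranges were -0.134 to 0.0282 (*Nlrc4*), -0.408 to 0.303 (*Naip2*), -0.319 to 0.0151 (*Pycard*), and -0.352 to 0.0611 (*Casp1*). For the interaction they were -0.0534 to 0.482 (*Nlrp1b*), -0.301 to 0.0708 (*Nlrc4*), -0.955 to 0.045 (*Naip2*), -0.301 to 0.0638 (*Naip5*), and -0.283 to 0.0362 (*Gsdmd*). *Naip5* lost its call with total counts in both LPS comparisons, at 0.473 and 0.553.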
